A study of Rattus norvegicus with 13 samples.

Results

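The windows described here are 595 autosomal hotspot windows with at least 2 times as much DMC1 signal, a measure of meiotic double-strand breaks, in testes of SHR rats with 1 functional copy of Prdm9 as in those of SHR rats with both copies. The deposited table has 96640 windows, 91120 of them on chromosomes 1 to 20. The windows were selected on 4 of the 5 measured columns, since a window had to have a hotspot strength of 30 or more in wild-type SHR, a strength in SHR Prdm9 KO/wt of at least 2 times that value, a WKY strength of 2 to 8 times the wild-type SHR value, and a strength of 20 or less in SHR Prdm9 KO/KO. They are called strengthened windows below. The 16338 windows that met every limit but the fold are called eligible windows, and the 595 are 3.64% of them. Without the limits on WKY and KO/KO, 1100 of 22164 autosomal windows with a wild-type strength of 30 or more (4.96%) passed the fold. The other 15743 eligible windows serve for comparison.

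PRDM9 is a histone methyltransferase with a zinc-finger array that binds particular DNA sequences and marks the chromatin there, and meiotic double-strand breaks (DSBs) are then made at the marked sites. Breaks gather in short stretches called hotspots, and without PRDM9 they fall at default sites such as promoters, whose chromatin is open for other reasons. DMC1 is the recombinase that coats the single-stranded DNA at a DSB, so that sequencing of DMC1-bound single-stranded DNA (SSDS) shows where breaks are and how much signal each site gives. A gain of signal at a site can come from more breaks or from breaks that stay unrepaired for longer, and the assay does not separate them.

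The values come from 5 DMC1 libraries of adult testes, with 1 library for each condition. SHR (SHR/OlaIpcv, the spontaneously hypertensive rat) was sampled as wild-type, as KO/wt (labelled Prdm9+/-) and as KO/KO (labelled Prdm9-/-), and WKY and BN (BN/RIJHsd, Brown Norway) were sampled as wild-type. The Prdm9 allele is shared by SHR and WKY, and BN has a different one. With 1 library per condition no difference has a replicate check, no test between conditions was possible, and members are not replicates. Intervals are 95% intervals over windows (Wilson for a percentage, order-statistic for a median) and cover only the counting of windows, which can share signal where they overlap. Strengths are whole numbers, some of them negative, and their definition and scaling are not given in the sources used here. The number of reads per library is unknown. Summed over autosomes, strength was 3324708 in KO/wt against 2691262 in wild-type SHR, with 12607770 in WKY, so a ratio between columns carries the scale of each library.

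The mutant alleles arose from a nuclease aimed at the part of Prdm9 that encodes the PR/SET domain, which methylates histone H3. The KO/KO animal was homozygous for the deletion named KO39, and the deletion carried by the KO/wt animal is not given in the sources used here. The stretch around KO39 is shown because the KO/KO animal carried this deletion in both copies. The paper describes KO39 as a genomic deletion that also takes part of an intron and affects an exon-intron boundary. The cDNA therefore shows only what the transcript lacks. In these 5′ to 3′ sequences of testicular Prdm9 cDNA, taken from the study's supplementary sequences, capitals mark the 29 bases the KO39 cDNA lacks. They are placed at the leftmost difference after the last shared base.
wild-type: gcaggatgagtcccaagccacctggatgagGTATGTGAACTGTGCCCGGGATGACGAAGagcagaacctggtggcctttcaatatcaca
KO39: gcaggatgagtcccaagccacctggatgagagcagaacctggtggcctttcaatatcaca
The missing length is not a multiple of 3, so the reading frame shifts before the zinc fingers are encoded. Sequences of the hotspot windows and the genes around them are not used here.

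**Figure D1:**
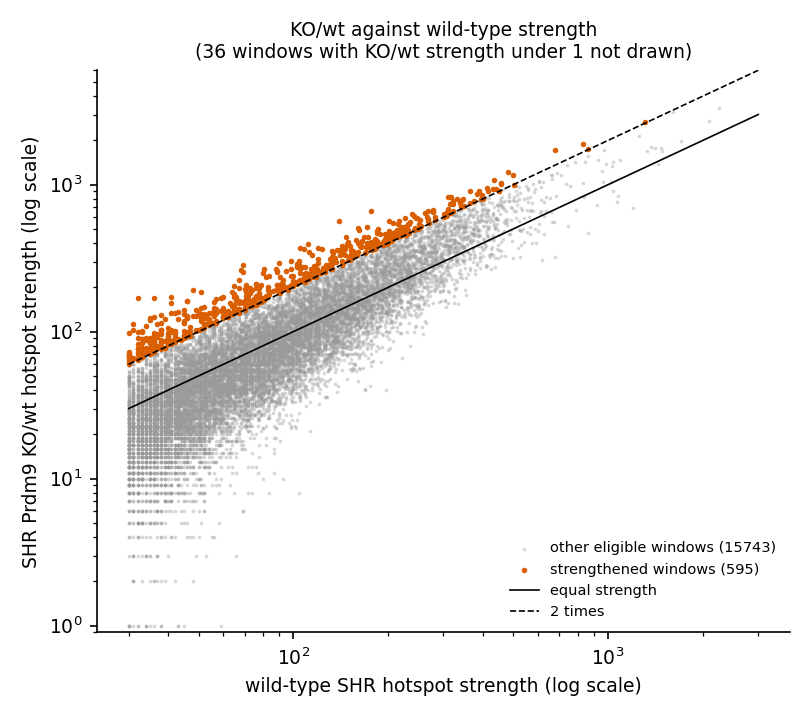
Hotspot strength in SHR Prdm9 KO/wt (vertical axis) against wild-type SHR (horizontal axis), both on log scales, for the eligible windows. Orange points are the 595 strengthened windows, grey points the other 15743, the solid line marks equal strength and the dashed line 2 times, and 36 windows with a KO/wt strength under 1 are not drawn. The orange points run from a wild-type strength of 30 to 1311 and lie mostly close to the dashed line.

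Most strengthened windows lay just past the threshold, and a hotspot was called in wild-type SHR in 86.1% of them, against 84.8% of the other eligible windows. Their wild-type SHR strength ranged from 30 to 1311 with a median of 89. Their KO/wt strength ranged from 60 to 2676 with a median of 207. These columns chose the windows, so the difference between them is a description. The KO/wt to wild-type ratio had a median of 2.25 and was below 2.5 in 441 windows, or 74.1%. It was between 2.5 and 3 in 108, between 3 and 4 in 41 and above 4 in 5. The ratio went with low wild-type strength, since the median wild-type strength was 98 in the lowest of these classes and 41 in the highest, while the median KO/wt strength was 209 and 171. Wild-type strength is the divisor of this ratio, so such a trend is partly built in, and the highest class holds only 5 windows.

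A hotspot was called in wild-type SHR, KO/wt and WKY together in 494 of the 595 windows, or 83.0% (79.8 to 85.8%), against 67.5% of the other eligible windows. It was called in KO/wt and not in wild-type SHR in 33 (5.55%, against 2.15% of the others), and in wild-type SHR and not in KO/wt in 8 (1.34%, against 15.6%). A further 50 had no call in either genotype (8.40%, against 13.1%). The rule chose on KO/wt strength, so the calls in KO/wt are a description. Of the 58 without a call in KO/wt (9.75%, against 28.7%), 26 overlap another window of the table. Among the other eligible windows 1179 of the 4514 without such a call do. Strengthened windows held 4.41% of the summed wild-type SHR strength of the eligible windows, 9.43% of the summed KO/wt strength and 4.17% of the summed WKY strength.

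The strongest strengthened windows were hotspots of SHR and WKY with little signal in BN, with 1 exception among the 10 strongest. The strongest in KO/wt lay at chr17:77079003-77082003 of rn5, with strengths of 2676 in KO/wt against 1311 in wild-type SHR, with 2720 in WKY, 23 in BN and 9 in KO/KO. The next, at chr7:110027798-110030798, had 1886 in KO/wt against 835 in wild-type SHR, with 2147 in WKY, 19 in BN and 14 in KO/KO. The third, at chr6:51555569-51558569, had 1735 in KO/wt against 863 in wild-type SHR, with 2541 in WKY, 12 in BN and 6 in KO/KO. In each of them KO/wt lay between wild-type SHR and WKY. Among the 10 strongest, wild-type SHR strength ran from 433 to 1311, KO/wt from 1002 to 2676, WKY from 1005 to 2720 and KO/KO from 0 to 16, and all 10 were called in these wild-type strains with the shared allele and in KO/wt. The only one of the 10 with a BN call was chr6:144296264-144299264, with 1082 in KO/wt against 433 in wild-type SHR, with 2504 in WKY and 253 in BN, and it overlaps another window.

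The 5 steepest ratios came from windows with a wild-type strength of 32 to 140. The highest was 5.28 at chr9:96599425-96602425, with strengths of 169 in KO/wt against 32 in wild-type SHR, with 179 in WKY, and this window overlaps another and was not called in KO/wt. At chr12:43270331-43273331 the strengths were 169 in KO/wt against 36 in wild-type SHR, with 104 in WKY, a ratio of 4.69 with a hotspot called in KO/wt and WKY and not in wild-type SHR. At chr17:45510905-45513905 they were 284 in KO/wt against 69 in wild-type SHR, with 185 in WKY. Among the 5 steepest, the highest wild-type strength went with a ratio of 4.06 at chr10:90135072-90138072, with 568 in KO/wt against 140 in wild-type SHR, with 542 in WKY. KO/wt was the strongest of all 5 libraries in each of the last 3 windows, and it exceeded WKY in 47 strengthened windows (7.90%) in all. The limits exclude this in the other eligible windows (0 of 15743), where KO/wt is below 2 times wild-type and WKY at least 2 times. The other of the 5 steepest, at chr2:100545164-100548164, had 171 in KO/wt against 41 in wild-type SHR, with 223 in WKY.

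The limit of 2 times cut through a continuous spread. A total of 18 windows lay exactly at 2, led by chr4:56592440-56595440 with 501 in wild-type SHR and 1002 in KO/wt. Next came chr6:37647630-37650630 with 305 and 610, and chr4:61882932-61885932 with 249 and 498. Just below the limit, chr5:110586973-110589973 had 276 in wild-type SHR and 551 in KO/wt. It was followed by chr11:49719562-49722562 with 195 and 389, and chr11:58427446-58430446 with 176 and 351. Each of these 3 missed the limit by 1 unit of KO/wt strength.

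**Figure D2:**
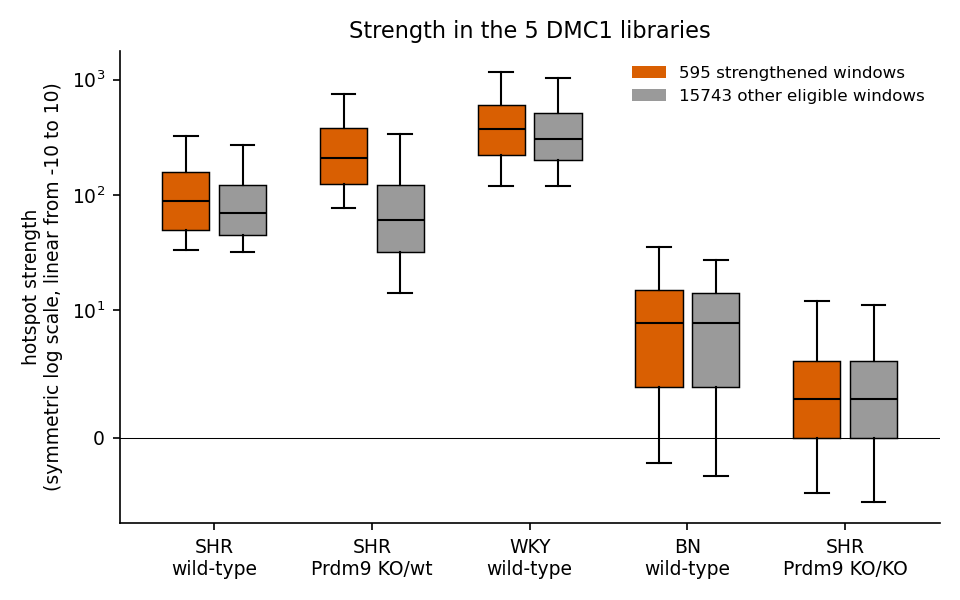
Hotspot strength of strengthened (orange) and other eligible windows (grey) in the 5 libraries, on a symmetric log axis that is linear between -10 and 10. Boxes show the quartiles and median and whiskers the range from 5 to 95% of windows. Medians are 207 and 60 in KO/wt, 89 and 70 in wild-type SHR, and 369 and 305 in WKY. In BN they are both 9 and in KO/KO both 3. The rule set limits on every column but BN, so the other medians are a description of the choice.

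In BN, whose column the rule did not use, the median strength of strengthened windows was that of the rest. BN strength ranged from -17 to 366 with a median of 9 (8 to 10), and the median of the other eligible windows was also 9 (9 to 9). A BN hotspot was called in 23 strengthened windows, 3.87% (2.59 to 5.73%), and in 2.57% of the others (2.34 to 2.83%). These intervals overlap. Of the 23 windows 14 overlap another window, as do 189 of the 405 other eligible windows with a BN call. Overlapping windows with no call in wild-type SHR, KO/wt or WKY made up 1.68% of the strengthened and 1.04% of the other eligible windows. Of the 23, 10 were called in BN and in no other library, and all 10 overlap another window. An example is chr5:130428665-130431665, with the highest BN strength, 366, beside 503 in WKY, 294 in KO/wt and 90 in wild-type SHR. Its neighbour chr5:130429501-130432501, itself strengthened, was called in wild-type SHR, KO/wt and WKY and had strengths of 155, 353 and 596 there and 257 in BN. Most of the interval of each window lies inside the other, so their values are not separate measurements. A window with a BN call and no overlap was chr1:54570543-54573543, with 442 in KO/wt against 213 in wild-type SHR, with 914 in WKY and 206 in BN. Another was chr1:13724915-13727915, where BN was the strongest library at 194, followed by KO/wt at 105, WKY at 103 and wild-type SHR at 51. The fifth BN call by strength, chr1:192594137-192597137, had 120 in BN, 32 in wild-type SHR and 76 in KO/wt, and it overlaps another window.

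KO/KO strength, which shows use as a default site, was held to 20 or less by the rule and had a median of 3 (2 to 3). A KO/KO hotspot was called in 1 strengthened window, chr11:48199823-48202823, with a KO/KO strength of 15, beside 141 in KO/wt, 134 in WKY and 45 in wild-type SHR. That is 0.168% of the strengthened windows (0.0297 to 0.946%), against 9 of the other eligible windows (0.0572%). Distance to default sites was not itself a limit of the rule. The KO/KO limit left out windows with KO/KO signal from both sets, however, so the shares at short distance are not independent of it. A window called in KO/KO had its centre within 3 kb of 5.04% of the strengthened windows (3.55 to 7.11%) and of 5.20% of the other eligible windows (4.86 to 5.55%). Within 100 kb the shares were 78.5% (75.0 to 81.6%) and 83.9% (83.3 to 84.5%), and the median distance to the nearest KO/KO hotspot was 32.3 kb against 27.7 kb.

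A rule on the ratio of KO/wt to wild-type favours windows whose wild-type value is low, or whose KO/wt value is high, by measurement error (regression to the mean), so the shares were read by strength and in both directions. The median eligible window was weaker in KO/wt than in wild-type, with a ratio of 0.879, although the summed strength of the eligible windows was higher in KO/wt, at 1796999 against 1667929. Of these windows 2558 (15.7%) were at least 2 times stronger in wild-type. The ratio climbed with strength. It was 0.694 (0.676 to 0.714) in windows of wild-type strength 30 to 39, 0.992 (0.974 to 1.01) at 100 to 199 and 1.29 (1.21 to 1.34) at 400 or more. The share of strengthened windows did not fall with wild-type strength. It was 3.22% (2.63 to 3.95%) at 30 to 39, 2.56% (2.11 to 3.10%) at 40 to 59, 4.50% (3.88 to 5.21%) at 100 to 199 and 6.77% (4.27 to 10.6%) at 400 or more. Windows at least 2 times stronger in wild-type took the opposite course, from 30.3% (28.6 to 32.0%) in the weakest class to 0.797% (0.219 to 2.86%) in the strongest.

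The spread around these medians was widest at weak windows. Windows with at least 2 times the median ratio of their own strength class, a measure chosen after the data were seen, made up 11.6% of the weakest class, 4.74% at a strength of 100 to 199 and 1.29% at 200 to 399. At 400 or more there were 0 of 251 such windows, and all 17 strengthened windows of that class lay within 2 times its median. The median ratio of the class as a whole was already above 1.

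**Figure D3:**
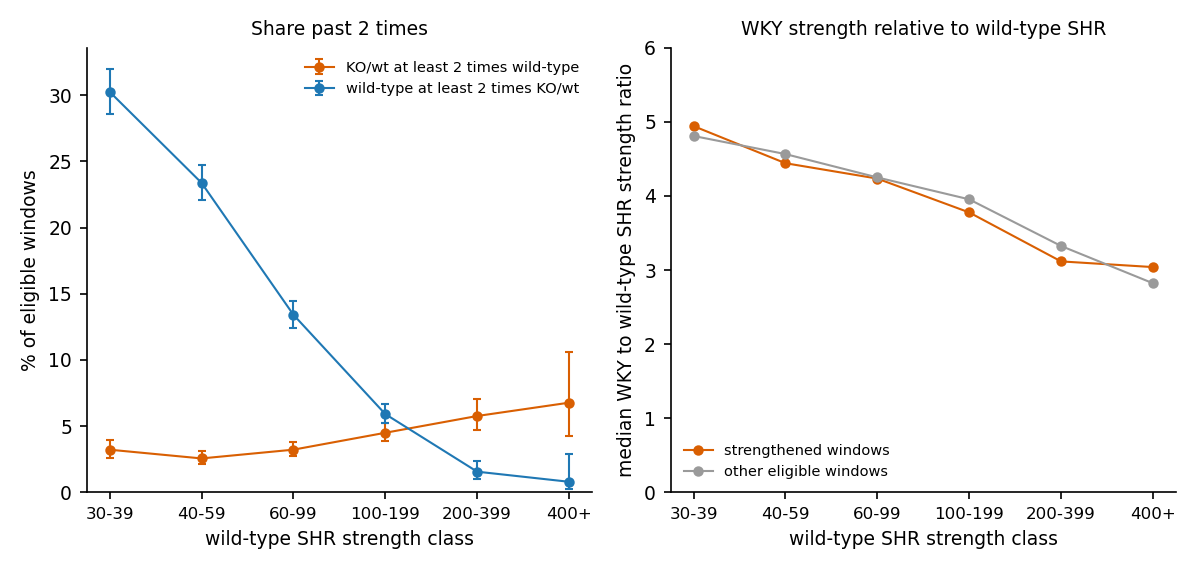
Left, percentage of eligible windows at least 2 times stronger in KO/wt (orange) or in wild-type SHR (blue) in 6 classes of wild-type SHR strength, with Wilson 95% intervals. Right, median WKY to wild-type SHR strength ratio of strengthened (orange) and other eligible windows (grey) in the same classes, where the lines run close together, from 4.94 and 4.81 in the weakest class to 3.04 and 2.82 in the strongest.

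WKY, a separate library with the same Prdm9 allele, gave another measure of the same sites, though the rule held its ratio to wild-type SHR between 2 and 8. A wild-type value that is too low raises the WKY to wild-type ratio as well. The limit of 8 left out the windows with the highest such ratios from both sets, so the medians are a description. The median WKY to wild-type ratio was 4.94 in strengthened and 4.81 in other windows at a wild-type strength of 30 to 39, and 4.44 and 4.57 at 40 to 59. It was 3.78 and 3.95 at 100 to 199, and 3.12 and 3.32 at 200 to 399. Only in the weakest and the strongest class was WKY the higher in strengthened windows. Over all strengthened windows the WKY to wild-type ratio had a median of 3.98, against 4.22 in the others.

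The windows were also sorted by WKY strength in place of wild-type strength. At a WKY strength of 60 to 149 the median wild-type SHR strength was 36.5 in strengthened and 38 in other eligible windows, and the median KO/wt strength 89 and 25. At 400 to 599 the wild-type medians were 119 and 107, and the KO/wt medians 271 and 99. At 1000 or more they were 344 and 296 in wild-type, and 796 and 328 in KO/wt. Below a WKY strength of 250 wild-type SHR medians were slightly lower in strengthened windows, and above it they were higher. Measurement error in the KO/wt library itself cannot be told apart from a difference between the genotypes, because there is no other KO/wt library.

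With KO/wt and wild-type SHR exchanged in every limit, the rule chose 267 of 12235 windows, or 2.18%. Their wild-type strength had a median of 101 (60 to 676 in all), their KO/wt strength 43, WKY 252 and BN 9. In this form both the floor of 30 and the WKY limits stand on KO/wt. With both on wild-type SHR, windows at least 2 times stronger in wild-type outnumbered the strengthened ones, as given above, so the balance between the directions depends on the column that carries these limits.

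The strengthened windows lay closer to each other than the other eligible windows lay to them. The median distance from a strengthened window to the next was 988 kb, and 86 of the 595 (14.5%, 11.9 to 17.5%) had another within 100 kb. Both windows of a close pair are counted, so intervals of such shares among strengthened windows treat linked windows as separate and are too narrow. The median distance from other eligible windows to the nearest strengthened one was 1713 kb, and 4.78% (4.45 to 5.12%) had one within 100 kb. Part of this comes from 27 strengthened windows that overlap another strengthened window, in 15 pairs that share signal. With overlapping pairs left out, 10.9% (8.66 to 13.7%) of strengthened and 4.65% (4.33 to 4.99%) of other eligible windows had a strengthened window within 100 kb. Both the choice of windows and overlap bear on this share: it was 6.64% (4.24 to 10.3%) at a wild-type strength of 100 or more, against 2.63% of other eligible windows, and there 2.95%, with an interval reaching 5.72%, against 2.44% once overlapping pairs were left out. At that strength the closeness was thus not larger than the counting error without the overlapping pairs. At 1000 kb, again without overlapping pairs, the shares were 48.7% (44.7 to 52.8%) and 35.0% (34.2 to 35.7%). Crowding of hotspots in general was alike, since another eligible window lay within 100 kb of 74.5% of the strengthened (70.8 to 77.8%) and 75.4% of the other windows (74.7 to 76.1%). Overlap with any window of the table was seen in 92 strengthened windows, 15.5% (12.8 to 18.6%), and in 17.6% of the others (17.0 to 18.2%).

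The 267 weakened windows were set beside them in the same way. At least 1 of the 267 lay within 1000 kb of 11.6% of the strengthened windows (9.27 to 14.4%) and of 17.5% of the other eligible windows (16.9 to 18.1%).

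**Figure D4:**
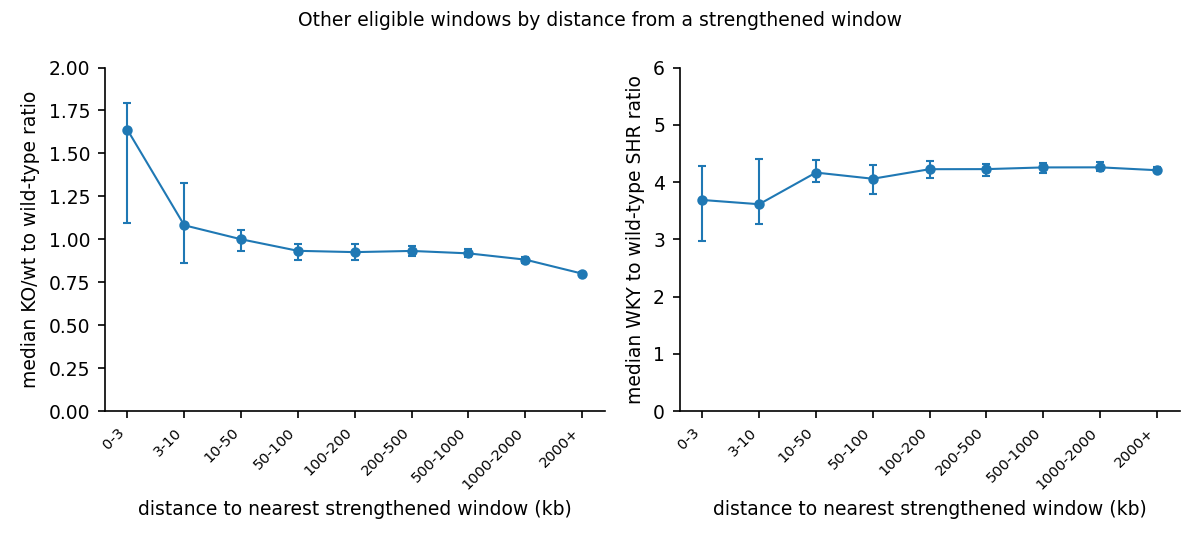
Median KO/wt to wild-type ratio (left) and median WKY to wild-type SHR ratio (right) of other eligible windows by distance between centres to the nearest strengthened window, with 95% intervals of the medians. The KO/wt ratio falls from 1 at 10 to 50 kb to 0.800 beyond 2000 kb, while the WKY ratio is 4.16 and 4.21.

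Neighbouring hotspots that were not chosen were described in the same way. The contrast is the one that chose the members, but these windows had failed its limit, which caps their ratio below 2. The median KO/wt to wild-type ratio of other eligible windows was 1.08 (0.864 to 1.33) at 3 to 10 kb from a strengthened window, 1 (0.933 to 1.06) at 10 to 50 kb, 0.932 (0.900 to 0.959) at 200 to 500 kb and 0.800 (0.786 to 0.809) beyond 2000 kb. At less than 3 kb, where windows overlap and share fragments, it was 1.64 (1.09 to 1.79) in 23 windows. The WKY to wild-type ratio was 4.16 (3.99 to 4.38) at 10 to 50 kb and 4.21 (4.17 to 4.26) beyond 2000 kb. Wild-type strength was 74 and 71 at these distances. Closer in, the WKY ratio was 3.61 at 3 to 10 kb and 3.69 below 3 kb, and the median wild-type strength 70.5 and 117.

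No 1 Mb stretch held more than 4 strengthened windows, and 4 stretches held that many. Each is given from its first to its last strengthened window, 443 to 702 kb, and eligible windows were counted only inside it. The shares below are thus high by construction and cannot be set against the 3.64% of all eligible windows. The first in genome order, chr1:54570543-55155713, had 4 among 7 eligible windows. Its members had wild-type SHR and KO/wt strengths of 213 and 442, 67 and 142, 36 and 126, and 109 and 219, and the median ratio of the 3 other eligible windows there was 1.28. The second, on chromosome 1 from 204058896 to 204760649, had 4 among 9, with 112 and 351, 114 and 267, 91 and 235, and 38 and 80. The third, on chromosome 5 from 130412427 to 130855497, had 4 among 5, 2 of which are the overlapping pair with high BN strength. The remaining stretch, on chromosome 20 from 46475469 to 47109463, had 4 among 6, with 108 and 367, 251 and 541, 103 and 279, and 241 and 608, and the last 2 windows overlap, the former of them being called in BN alone.

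By chromosome, the strengthened share of eligible windows ran from 2.37% on chromosome 15 (14 of 591, 1.42 to 3.94%) to 5.35% on chromosome 7 (49 of 916, 4.07 to 7.00%). Chromosome 1 had the most members, 85 of 1785 eligible windows (4.76%, 3.87 to 5.85%). Among 188 bins of 10 Mb with at least 50 eligible windows, 26 had no strengthened window, and the median KO/wt to wild-type ratio ran from 0.501 to 1.23. The highest shares were 12.1% on chromosome 2 from 220 to 230 Mb (7 of 58, 5.97 to 22.9%), 11.9% on chromosome 1 from 50 to 60 Mb (8 of 67, 6.18 to 21.8%) and 11.8% on chromosome 7 from 120 to 130 Mb (10 of 85, 6.52 to 20.3%). The last adjoins a bin from 110 to 120 Mb with 11.6% (8 of 69). These bins were picked as the highest of 188, which their intervals do not allow for. Over all eligible windows the share was 3.64%.

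**Figure D5:**
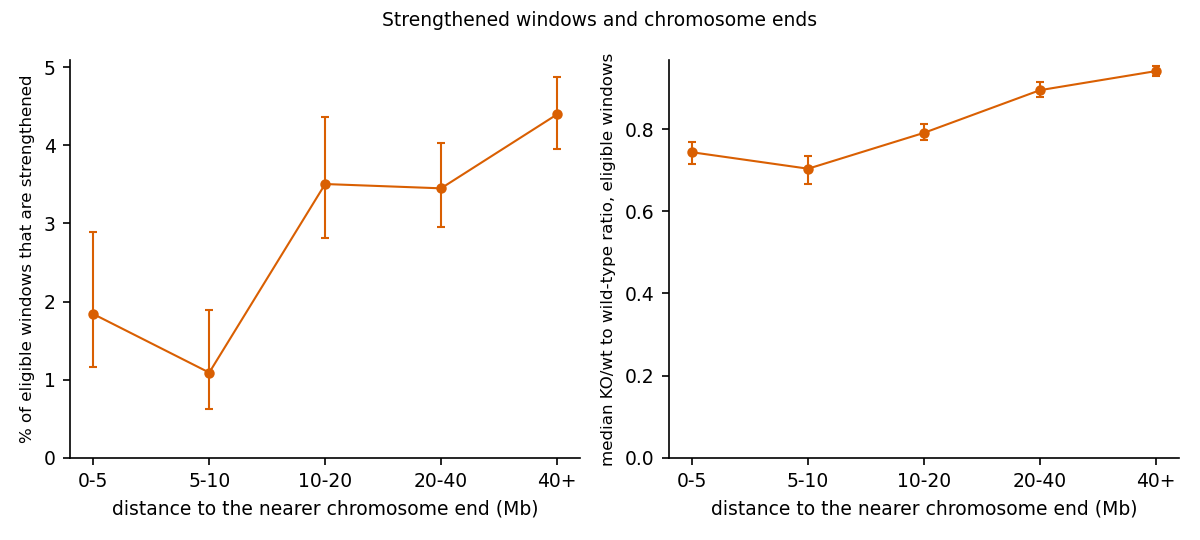
Percentage of eligible windows that were strengthened (left) and median KO/wt to wild-type ratio of all eligible windows (right) by distance to the nearer end of the chromosome, with 95% intervals. The share is 1.84% and 1.09% in the outer classes (0 to 5 and 5 to 10 Mb) and 4.40% beyond 40 Mb.

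Near chromosome ends strengthened windows made up a smaller share. Within 10 Mb of either end (the first base, or the last window of the table) there were 30 of them, 5.04% of the 595 (3.55 to 7.11%), against 13.0% of the other eligible windows (12.5 to 13.5%). The last 10 Mb held 3.03% (1.92 to 4.73%) against 7.17% (6.77 to 7.58%), and the first 10 Mb 2.02% (1.16 to 3.49%) against 5.84% (5.49 to 6.22%). Among the eligible windows of these ends 1.44% were strengthened (1.01 to 2.05%), against 3.96% elsewhere (3.65 to 4.29%). KO/wt was lower there as a whole, with a median ratio of 0.725 (0.703 to 0.743) within 10 Mb of an end and 0.941 (0.929 to 0.954) beyond 40 Mb. The median wild-type strength was 70 in these end regions and 73 beyond 40 Mb, and the median WKY to wild-type ratio 4.11 and 4.12. The former pools 3.52 at 0 to 5 Mb from an end and 4.54 at 5 to 10 Mb. Over all autosomal windows of the table the median KO/KO strength was 10 within 10 Mb of an end and 6 beyond 40 Mb. The rule leaves out windows with a KO/KO strength above 20. With no such limit, the last 10 Mb held 5.09% (3.73 to 6.91%) of strengthened and 7.24% of other eligible windows. The part of KO/KO signal in the difference was not tested.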

How the data were processed

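The series has 13 samples, and the deposited table holds values of 5, the DMC1 SSDS libraries of testis. H3K4me3 and input libraries were not analysed here. The authors aligned reads to rn5 with a modified bwa (BWA 0.7.12), and called hotspots from fragments of single-stranded origin with unique alignments. The submitters' processing notes also name bedtools 2.23.0 and MACS2 2.1.0.20150420. The deposited strength of each window is used as a score whose scaling is not stated, and the authors' hotspot call is marked by 1 or 0. Of 96640 windows 96639 are 3000 bp long, and coordinates are as deposited. Depth is unknown, so intervals cover the counting of windows only.

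The windows were chosen by the rule stated in the report, and distances run between window centres. The windows, the comparisons and the rule for named windows (the 10 strongest in KO/wt, the 5 steepest, the 5 strongest in BN, the fullest 1 Mb stretch, 5 on each side of the limit, and up to 5 called in BN or KO/KO) were chosen with earlier results of these data known. The other full stretches were added after their values were seen. No test was run, since each condition has 1 library. Values were computed in Python 3.11.15 with pandas 2.3.3, numpy 2.4.6 and scipy 1.17.1, and drawn with matplotlib 3.10.9. Alternatives changed the fold, the strength floor, the WKY and KO/KO limits, the overlap and call filters and the scale of KO/wt. The functions were tested on simulated data in 7 checks on up to 96640 windows, and 7 were recovered.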

Additional observations from a re-analysis of the deposited data

How the results depend on the processing

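No paired analysis was possible because each condition has 1 library. Limits on fold and strength set how many windows are chosen: 2198 at 1.5 times, 46 at 3 times, 271 at a wild-type strength of 100 or more, and 1147 with KO/wt divided by the median ratio of eligible windows. Set after the data were seen, 2 times the median ratio of the own strength class gave 1098 with classes of wild-type SHR and 1102 with classes of WKY. With KO/wt and wild-type exchanged, the 267 became 1376 at 1.5 times, 8 at 3 times, 97 and 13 at strengths of 50 and 100 or more, 674 with no WKY limit and 147 after the division. Strengthened windows outnumbered the weakened ones of the exchanged rule in each setting run on both, but that rule puts its limits on KO/wt. With the limits on wild-type SHR the order was the reverse. There 2558 eligible windows (15.7%) were at least 2 times stronger in wild-type, against 595 (3.64%) in KO/wt.

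Overlap with another window was 21.7% at 3 times (12.3 to 35.6%, other eligible windows 17.5%). With no KO/KO limit it was 26.3% (23.2 to 29.5%, other eligible windows 19.4%), so there the strengthened share was the higher. In windows called in both SHR genotypes it was 11.7% (other eligible windows 13.4%). A strengthened window within 100 kb of another was found in 25.6% (other eligible windows 16.0%) at 1.5 times, 8.70% (0.399%) at 3 times, 10.1% (3.98%) and 6.64% (2.63%) at strengths of 50 and 100 or more, 20.9% (5.84%) with no KO/KO limit, 8.75% (4.11%) in windows without overlap, 9.52% (4.44%) in windows called in both, and 18.9% (8.77%) after the division. The cause of these moves was not tested. With overlapping pairs left out, as was decided once the data had been seen, the share ran from 2.95% (2.44%) at a strength of 100 or more to 22.9% (15.7%) at 1.5 times. The median BN strength was 9 to 10 throughout. Chosen after the data were seen, the share within 10 Mb of the last window ran from 1.48% (strength of 100 or more) to 6.52% (3 times), against 7.02% of other eligible windows in the latter. Overlap has no value in windows without overlap. Of 44 values under other settings 23 stayed within the interval of the value in the report (for counts, within 1.5 times), and of 20 added after the data were seen 10 did. A single library per condition and the unknown read depth limit every value here.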

Other observations

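Chromosome X, which the rule leaves out, had 1353 windows that met the same limits apart from the fold, and 30 of them were at least 2 times stronger in KO/wt, or 2.22% (1.56 to 3.15%). Their strength had medians of 401 in KO/wt against 178.5 in wild-type SHR, with 620 in WKY and 6 in BN, and their highest KO/wt value was 5852. Of these 30 windows 9 overlap another window, and the share among the other windows of chromosome X is not given here. The median KO/wt to wild-type ratio of the 1353 was 0.840.

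The limit on KO/KO strength left out 151 further autosomal windows at least 2 times stronger in KO/wt. They had a median KO/KO strength of 64, a median KO/wt strength of 156 and a median wild-type SHR strength of 53. Of the 151, 104 overlap another window (68.9%) and 77 were called in KO/KO. All of them exceed the KO/KO limit, so the KO/KO calls follow in part from how they were picked. The same shares are not given here for the other windows that this limit left out.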
